A study of Rattus norvegicus with 12 samples.

Results

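Triclosan and diclosan differ by 1 chlorine atom, and the transcripts of cultured rat hepatocytes exposed to one were compared with those exposed to the other. The comparison used the 6 arrays titled for these phenols, 3 per compound, of 12 arrays in all. Both are diphenyl ethers with a phenolic hydroxyl group. Diclosan lacks the chlorine that triclosan carries beside the ether oxygen on the ring without the hydroxyl. The cells were primary hepatocytes from male Sprague Dawley rats, thawed from frozen stocks. After 24 h in culture they received triclosan at 30 µM, diclosan at 30 µM or the DMSO vehicle alone (3 arrays) for a further 24 h. The last group of 3 arrays, 1-chloro-3-(4-chlorophenoxy) benzene (CCPB) at 30 µM, lacks the hydroxyl group and entered the shared estimate of the spread. Each array stands for an independent experiment per the series' design. The labels do not say how many rats gave the cells, and the p-values measure the spread between these arrays.

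Triclosan is an antibacterial agent that blocks the bacterial enoyl reductase of fatty acid synthesis, and diclosan is used in the same way. In hepatocytes, foreign chemicals of this kind are taken up, hydroxylated by cytochromes P450 and joined to glucuronic acid or sulfate at a phenolic group. Nuclear receptors such as CAR, PXR, AhR and PPARalpha sense such compounds and raise the genes of drug and lipid metabolism. The question here was which of these transcripts, and of others, separate both phenols at the same dose and time, and how small a difference the arrays could exclude. This was 1 pair of compounds.

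Levels are log2 of the background-subtracted array signal minus that array's 75th percentile over probes, so that a level of 0 is the 75th percentile and 1 unit is 2-fold. On the 6 arrays between 51.6% and 55.4% of probes were well above background. A probe was kept when it was so on all 3 arrays of triclosan or all 3 of diclosan, which gave 19886 transcripts to test, 10528 of them with a gene symbol. For 719 transcripts only 1 of the groups met this. These had to differ in some degree, in level or in standing above background, to be kept that way. Of probes, 662 were kept through diclosan only and 176 through triclosan only. Triclosan 2 had the lowest share of probes above background (51.6%). Its dimmest such probe stood at -4.71, against -5.44 to -4.95 on the other triclosan and diclosan arrays. All 37 hepatocyte genes on a fixed list, among them albumin, were above background on all 9 triclosan, diclosan and DMSO arrays. Markers of other liver cells were dimmer. Of 18 Kupffer cell markers 8 were above background on all 9 arrays, and Marco, Adgre1 and Mrc1 were so on none.

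Triclosan and diclosan arrays 1 and 2 were on 1 slide, and diclosan array 3 was on the second slide. The typical transcript (the median over transcripts of the absolute difference between a pair of arrays) differed by 0.063 to 0.083 among the triclosan arrays and by 0.064 between diclosan 1 and 2. It differed by 0.11 between diclosan 3 and either of the other diclosan arrays. A triclosan array and a diclosan array of the same slide differed by 0.066 to 0.085. Across slides they differed by 0.10 to 0.12. With 1 diclosan array on the second slide, what belongs to the slide and what to that culture cannot be told apart, so first-slide values are given beside the lists that separated and the leading genes.

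No transcript separated the phenols past the threshold. Of 19886 transcripts tested with limma, 0 (0%) had an adjusted p under 0.05, and the smallest adjusted p was 0.0620. At an unadjusted limma p under 0.05, 696 transcripts (3.5%) had higher levels with triclosan and 673 (3.38%) lower levels. All 3 triclosan arrays lay above all 3 diclosan arrays for 916 transcripts (4.61%) and below them for 1079 (5.43%). On the first slide alone the unadjusted counts were 751 higher (3.78%) and 671 lower (3.37%), and again 0 transcripts passed after adjustment. A p that misses the threshold does not show that the compounds act alike, so the size of difference that the arrays exclude was tested directly.

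A 2-fold difference in either direction was excluded for 19712 transcripts (99.1%). This used one-sided limma tests in both directions, with the larger p of each transcript adjusted over all transcripts at 0.05. A 1.5-fold difference was excluded for 18601 (93.5%) and a 25% difference (the higher level 25% above the lower, 0.32 on the log2 scale) for 15126 (76.1%). The median absolute difference was 0.050 and the 95% interval reached a median of 0.14 to either side of the estimate. Over all transcripts, the end of the 95% interval farther from 0 had a median of 1.15-fold, a 90th percentile of 1.47-fold, a 95th of 1.64-fold and a 99th of 2.12-fold. With intervals widened for all 19886 tests by the Bonferroni rule, 14099 transcripts (70.9%) still lay within 2-fold. On the first slide alone, with 2 diclosan arrays, 98.9% excluded a 2-fold difference and 75.8% a 25% difference.

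The precision followed the level. Transcripts were put into 4 equal groups by level, and in the dimmest group the interval reached a median of 0.33 to either side. There a 25% difference was excluded for 27.2%. The next groups up had intervals of 0.16, 0.11 and 0.093, with a 25% difference excluded for 83.6%, 95.9% and 97.5%. Among the 601 distinct genes of the 29 fixed lists that were tested, a 2-fold difference was excluded for 597 and a 25% difference for 537. The exceptions to the 2-fold limit were Clec4f and Ctss (macrophage markers), Col1a1 (a collagen of stellate cells) and Cyp26b1 (a retinoic acid hydroxylase).

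**Figure D1:**
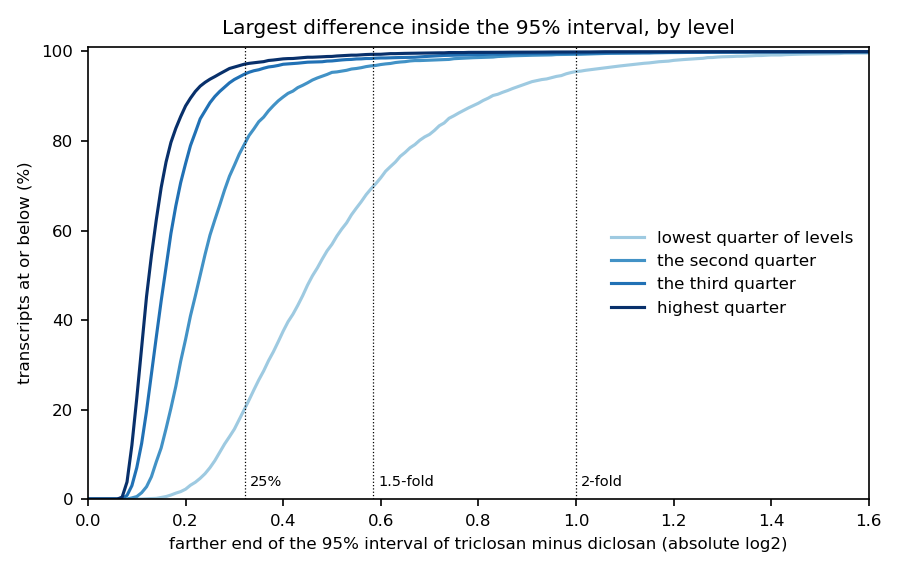
Share of transcripts (%, vertical axis) whose 95% interval of triclosan minus diclosan stays within a given size (horizontal axis, absolute log2), for 4 equal groups of transcripts by mean level. Dotted lines mark 25%, 1.5-fold and 2-fold. The dimmest group lies far to the right of the others, with a median reach of 0.33 to either side of the estimate against 0.093 in the brightest.

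In 7 transcripts the mean difference was at least 2-fold, 3 of them named genes. The largest belonged to an unnamed transcript whose level was 8.64 to 8.73 on the triclosan arrays and 8.62, 2.19 and 8.68 on the diclosan arrays, so that a single diclosan array set the whole difference. Ccl4, an inflammatory chemokine, read -3.50, -3.16 and -3.06 with triclosan and -5.58, -3.92 and -5.93 with diclosan, where it was above background on 1 array. Its DMSO arrays ran from -6.96 to -3.06. The interval of its difference, 1.90, ran from -0.63 to 4.44. For the other 3 unnamed transcripts the interval left out 0, at 1.48 (0.57 to 2.39), -1.40 (-2.34 to -0.45) and -1.09 (-2.13 to -0.048). All 3 had been kept through the brighter group only and so had to differ in some degree, and the groups of the last overlapped. The one at -1.40 was not well above background on any triclosan array.

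Rsad2 and Ifit3, antiviral genes that interferon induces, were the other named genes at 2-fold. Rsad2 read 4.59, 1.07 and 2.98 with triclosan, 1.62, 2.43 and 1.46 with diclosan, and 1.26, 1.31 and 4.24 with DMSO. Its difference was 1.04 (95% interval -1.02 to 3.10), and the groups overlapped. Ifit3 read 1.41, -1.71 and -0.56 with triclosan against -2.10, -0.48 and -1.40 with diclosan, a difference of 1.04 (-0.86 to 2.94). Triclosan 1, DMSO 3 and diclosan 2 held the highest level of both genes within their groups.

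The same arrays were highest for other interferon-stimulated genes. A list of 14 such genes was put together after these values were seen and is given without a test. All 14 were highest in triclosan 1 among the triclosan arrays, in diclosan 2 among the diclosan arrays and in DMSO 3 among the DMSO arrays. Their median level relative to the DMSO mean was 1.04, -0.39 and -0.094 on the triclosan arrays, -0.25, 0.31 and -0.29 on the diclosan arrays, and -0.12, -0.45 and 0.53 on the DMSO arrays. The groups overlapped for all 14. The median difference between the phenols was 0.11, and -0.12 without triclosan 1, so its direction rested on that array.

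**Figure D2:**
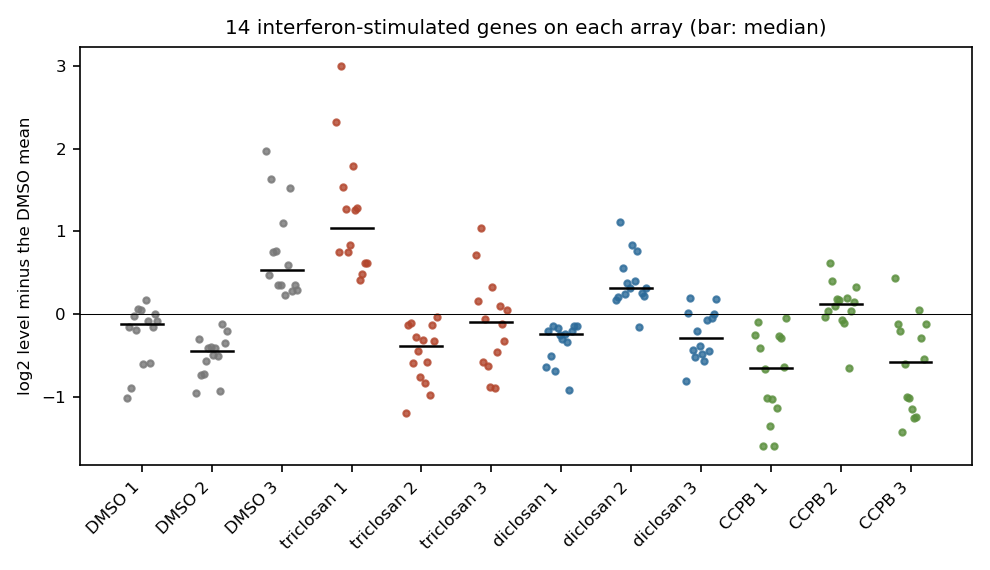
Levels of 14 interferon-stimulated genes on each array (points, log2 level minus the DMSO mean of the gene) with the median of each array (bar). Within each group 1 array stands above the others, triclosan 1 with a median of 1.04, DMSO 3 with 0.53 and diclosan 2 with 0.31. Colours mark the groups, CCPB included.

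Fhl2 came closest to the threshold. It encodes a LIM-domain protein that binds transcription factors and integrins, and it is named here after its values were seen. Its level was -0.50, -0.48 and -0.40 on the triclosan arrays, -0.14, -0.032 and -0.0089 on the diclosan arrays, and -0.28, -0.25 and -0.30 with DMSO. The phenols lay on opposite sides of the vehicle with no overlap among the 9 arrays. The difference was -0.40 (95% interval -0.49 to -0.30; limma adjusted p = 0.0620), which is 1.32-fold lower with triclosan, and -0.37 on the first slide. It was adjusted p = 0.0376 without diclosan 1 and 0.0479 after quantile normalization. Over the 20 alternative settings the difference ran from -0.44 to -0.33 and the adjusted p from 0.0376 to 0.714, the highest when only the 6 compared arrays were fitted.

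The 16 named genes with the largest differences among those whose groups did not overlap and whose 95% interval left out 0, which leaves out Ccl4, were all dim. No group mean among them exceeded -4.06, and 15 of the 16 were not above background on all 3 arrays of the dimmer group. These 15, Adam4 and Sncg among them, had been kept through the brighter group only and so had to differ in some degree. The highest estimate among them belonged to Adam4, a membrane metalloprotease gene, at -4.15, -4.18 and -4.70 with triclosan and -4.93, -5.27 and -5.38 with diclosan. Its difference was 0.85 (0.49 to 1.21; limma adjusted p = 0.294). The lowest was Sncg, a gamma-synuclein gene, at -5.15, -5.29 and -4.99 against -4.76, -4.09 and -4.44. Its difference was -0.71 (-1.15 to -0.26; limma adjusted p = 0.550). Or4c108b was not well above background on any diclosan array, nor Efcc1 on any triclosan array. With diclosan readings raised, where lower, to the lowest signal well above background on each array, Or4c108b averaged 1.48-fold higher with triclosan. This fold does not allow for the spread between arrays. The 95% interval of its measured difference ran from 0.17 to 1.28 (limma adjusted p = 0.607). With its triclosan readings raised in the same way, Efcc1 averaged 1.26-fold lower with triclosan, again without allowance for that spread. The interval of its measured difference ran from -1.06 to -0.24 (limma adjusted p = 0.550). The rest, Zfp280c, Slc52a3, Sema3e, Dlg2, Igll1 and Osm on the higher side and LOC102550429, Slc24a1, Defb51, Hycc1, Gnai1 and Or8g36c on the lower, had adjusted p of 0.194 or more in limma.

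Pathways were compared by the levels of 29 gene lists, which were chosen with earlier results of these data known. The shares of their members are therefore set beside those of all transcripts as description, not as a test. In 24 lists the medians of the triclosan and diclosan arrays overlapped. In 2 lists every triclosan array lay above every diclosan array (PPARalpha targets with fatty acid oxidation, and cholesterol synthesis and uptake), and in 3 every triclosan array lay below (immediate early genes, Kupffer cell markers and endothelial cell markers, the last with 3 genes tested). Among all single transcripts, 4.61% lay above and 5.43% below in this way, and the separation of the lists was not tested. No member of any list passed the adjusted test, and in 8 lists no member reached an unadjusted p under 0.05.

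**Figure D3:**
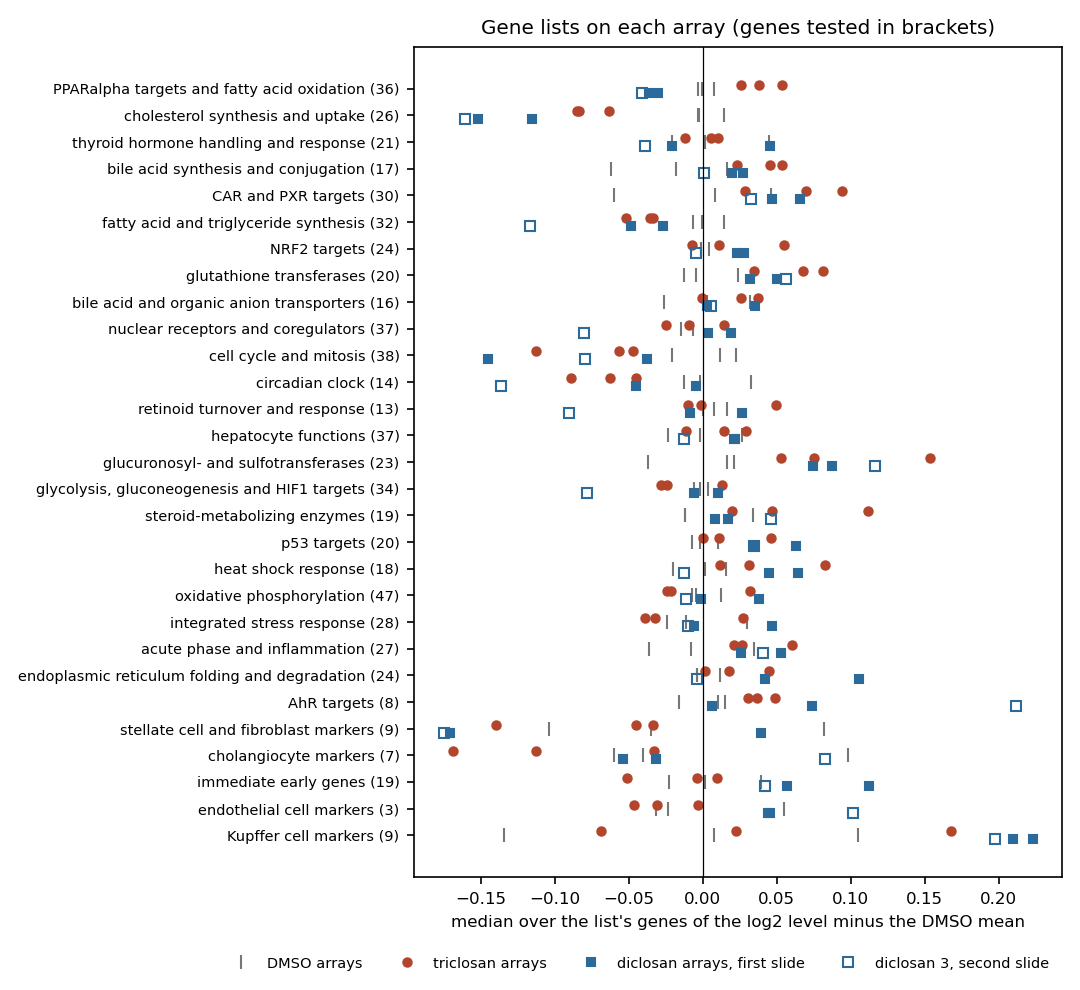
Median over each list's genes of the log2 level minus the DMSO mean (horizontal axis), for each triclosan array (circles), diclosan array (squares, open for the array on the second slide) and DMSO array (ticks), with the number of genes tested in brackets. Triclosan and diclosan arrays separate for PPARalpha targets (0.026 to 0.053 against -0.041 to -0.030), cholesterol synthesis, immediate early genes, endothelial and Kupffer cell markers, and overlap in the other 24 lists.

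PPARalpha is the fatty acid receptor of the liver, and its targets carry fatty acids into mitochondria and peroxisomes and break them down there. Of its 36 listed targets and oxidation genes, all tested, 29 had a higher mean with triclosan, as had 8832 of all 19886 transcripts. Of the 36, 10 (27.8%) were higher at an unadjusted limma p under 0.05 and 0 lower at that p, beside 3.5% and 3.38% of all transcripts. For 14 (38.9%) all triclosan arrays lay above all diclosan arrays, beside 4.61% of all transcripts. The median difference was 0.074, against -0.0093 over all transcripts. The list's median relative to DMSO was 0.026, 0.038 and 0.053 on the triclosan arrays and -0.030, -0.036 and -0.041 on the diclosan arrays, on either side of the vehicle. On the first slide alone the median difference was 0.048, and 8 of 36 were higher at an unadjusted p under 0.05, beside 3.78% of all transcripts. Without triclosan 3 the count of 10 fell to 6. A 1.5-fold difference was excluded for all 36 and a 25% difference for 31.

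Pdk4, the kinase that shuts off pyruvate dehydrogenase when fat is burnt, had the largest difference of the list. It read -2.29, -2.32 and -2.32 with triclosan, -2.77, -2.57 and -2.78 with diclosan, and -2.42, -2.71 and -2.72 with DMSO. The triclosan arrays were above all diclosan and DMSO arrays. The difference was 0.39 (0.18 to 0.60; limma adjusted p = 0.460), or 1.31-fold, and 0.36 on the first slide. Cyp4a3, a fatty acid omega-hydroxylase, read from 1.1 to 1.27 with triclosan, 0.98, 1.00 and 0.92 with diclosan, and 0.90, 0.91 and 0.99 with DMSO. Its triclosan arrays were again the highest of the 9. The difference was 0.24 (0.092 to 0.39; limma adjusted p = 0.539), and a different probe of the gene gave 0.32 (0.097 to 0.53). Its relative Cyp4a1 differed by 0.040 (-0.046 to 0.13).

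The receptor gene itself, Ppara, read -0.59, -0.49 and -0.64 with triclosan, -0.80, -0.77 and -0.72 with diclosan and -0.67, -0.69 and -0.62 with DMSO. Its difference was 0.19 (0.037 to 0.35), with DMSO between the phenols. The mitochondrial entry step is run by the carnitine palmitoyltransferases, and Cpt1a differed by 0.12 (0.021 to 0.21) and Cpt2 by 0.10 (0.024 to 0.18). The oxidation enzymes Decr1, a dienoyl-CoA reductase, and Acaa2, a thiolase, differed by 0.095 (0.031 to 0.16) and 0.11 (0.019 to 0.20). Decr1 showed how tight the groups were, at 3.92, 3.97 and 3.94 with triclosan, 3.84, 3.85 and 3.86 with diclosan and 3.94, 3.92 and 3.94 with DMSO, where the diclosan arrays were the lowest of the 9. Acot4, a peroxisomal thioesterase, differed by 0.094 (0.027 to 0.16), and Pex11a, which divides peroxisomes, by 0.11 (0.0043 to 0.21). Angptl4, a secreted inhibitor of lipoprotein lipase, read 5.69, 5.57 and 5.56 with triclosan and 5.46, 5.53 and 5.33 with diclosan, with DMSO at 5.72, 5.60 and 5.66 and a difference of 0.16 (0.035 to 0.29). These 10 genes had limma adjusted p between 0.460 and 0.713.

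Other targets of the receptor did not separate. Acadm and Acadvl, acyl-CoA dehydrogenases of mitochondria, differed by -0.0040 (-0.095 to 0.087) and 0.0013 (-0.094 to 0.096). Fgf21, a hormone that PPARalpha induces in fasting, differed by 0.036 (-0.081 to 0.15). Bdh1, a ketone body dehydrogenase, had the lowest estimate of the list at -0.13 (-0.33 to 0.076).

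**Figure D4:**
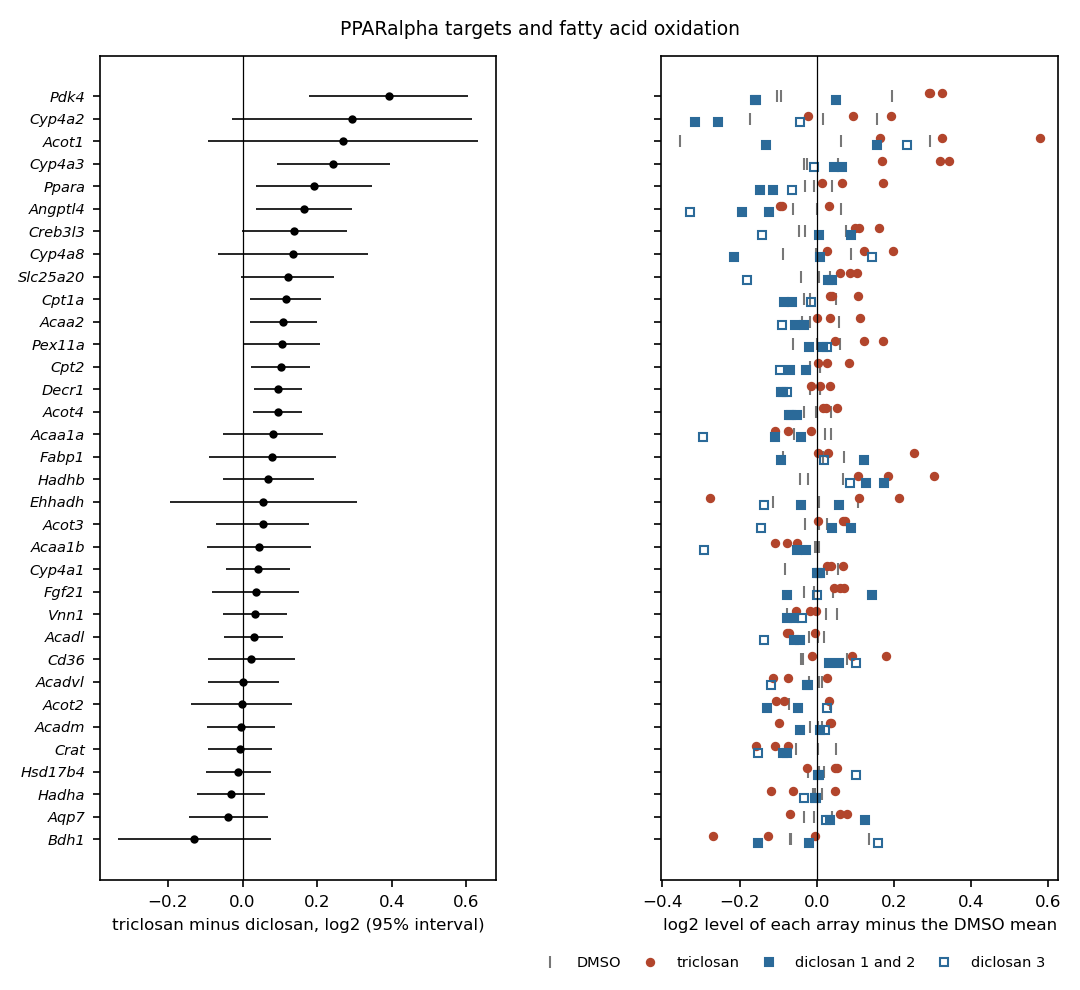
PPARalpha targets and fatty acid oxidation genes (34 of the 36 tested), ordered by difference. Left, triclosan minus diclosan with its 95% interval (log2). Right, the level of each array minus the DMSO mean of the gene, for DMSO (ticks), triclosan (circles) and diclosan (squares, open for diclosan 3). Pdk4 has the largest estimate at 0.39, and 27 of the 34 estimates drawn lie above 0.

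PPARalpha binds with its partner RXR to a DR1 element, repeats of a 6-base core spaced by 1 base. The 250 bases before the start in RefSeq's GRCr8 annotation were searched on both strands for AGGNCANAGGNCA. Listed genes with several promoter windows were left out, and 28 of the 36 had a single window and were searched. Over all 33469 promoters, those of genes with several included, 123 (0.368%) held the motif. Of the 28, 1 (3.57%) held it, Fabp1, which carries fatty acids in the cytosol. The match lies from -77 to -65 relative to the start (chr4:104749090-104749339, plus strand). It is shown in capitals because it is the single match among the list's windows searched. Fabp1 itself read 2.50, 2.52 and 2.75 with triclosan and 2.40, 2.62 and 2.51 with diclosan, and the groups overlapped. No match says only that these letters are not in the window.
Fabp1: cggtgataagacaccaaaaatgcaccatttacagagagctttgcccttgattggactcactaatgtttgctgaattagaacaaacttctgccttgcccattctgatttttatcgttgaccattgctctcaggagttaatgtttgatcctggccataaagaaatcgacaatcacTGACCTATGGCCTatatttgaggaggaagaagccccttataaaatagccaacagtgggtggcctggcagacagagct

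Immediate early genes encode transcription factors and their regulators that are switched on within minutes of a signal, through the serum response element, the cyclic AMP response element and others. Of 23 listed, 19 were tested, and 14 had a lower mean with triclosan than with diclosan, as had 11054 of all 19886 transcripts. At an unadjusted limma p under 0.05, 6 of 19 (31.6%) were lower and 0 higher, beside 3.38% and 3.5% of all transcripts. For 8 (42.1%) all triclosan arrays lay below all diclosan arrays, beside 5.43%. The median difference was -0.073 and on the first slide -0.068, where 6 of 19 were lower at that p, beside 3.37%, and 1 was higher. Without triclosan 3 the median difference was -0.033, and 6 were still lower at that p. Relative to DMSO the list's median was 0.0095, -0.0043 and -0.052 on the triclosan arrays and 0.11, 0.057 and 0.042 on the diclosan arrays. A 25% difference was excluded for 14 of 19.

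Atf3, a stress-induced repressor that also belongs to the integrated stress response, had the smallest p of the list. It read 3.64, 3.64 and 3.68 with triclosan, 3.92, 3.83 and 3.91 with diclosan and 3.81, 3.79 and 3.86 with DMSO. All triclosan arrays lay below the other 6, and the diclosan arrays overlapped with DMSO. The difference was -0.23 (-0.32 to -0.15; limma adjusted p = 0.194), or 1.18-fold lower, and -0.22 on the first slide. Ier2, a nuclear regulator, read 3.07, 3.04 and 3.03 with triclosan, 3.27, 3.19 and 3.15 with diclosan and 3.10, 3.10 and 3.11 with DMSO, between the phenols. Its difference was -0.15 (-0.24 to -0.072; limma adjusted p = 0.455), and a dimmer probe of the gene gave -0.027 (-0.41 to 0.36).

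Maff, a small leucine zipper protein, differed by -0.14 (-0.23 to -0.045), and its triclosan arrays (1.58, 1.5 and 1.49) lay below those of diclosan (1.72, 1.62 and 1.66) and of DMSO (1.70, 1.65 and 1.73). Klf4, a zinc finger factor, read -0.15, -0.069 and -0.17 with triclosan, 0.14, 0.022 and 0.035 with diclosan and 0.025, 0.034 and 0.14 with DMSO, a difference of -0.20 (-0.34 to -0.050). Nr4a1, an orphan nuclear receptor, differed by -0.19 (-0.33 to -0.049). Fosl1, a partner of Jun, differed by -0.29 (-0.52 to -0.060), with diclosan arrays at -0.20, -0.56 and -0.28 against -0.63, -0.68 and -0.58. These 4 genes had limma adjusted p between 0.564 and 0.627. Egr1 showed no such separation. It read -1.21, -1.26 and -1.13 with triclosan, -1.16, -1.18 and -1.55 with diclosan and -2.02, -1.59 and -1.61 with DMSO, a difference of 0.10 (-0.18 to 0.38). Jun, Myc and Dusp1 differed by -0.022 (-0.11 to 0.070), 0.061 (-0.041 to 0.16) and 0.027 (-0.098 to 0.15).

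**Figure D5:**
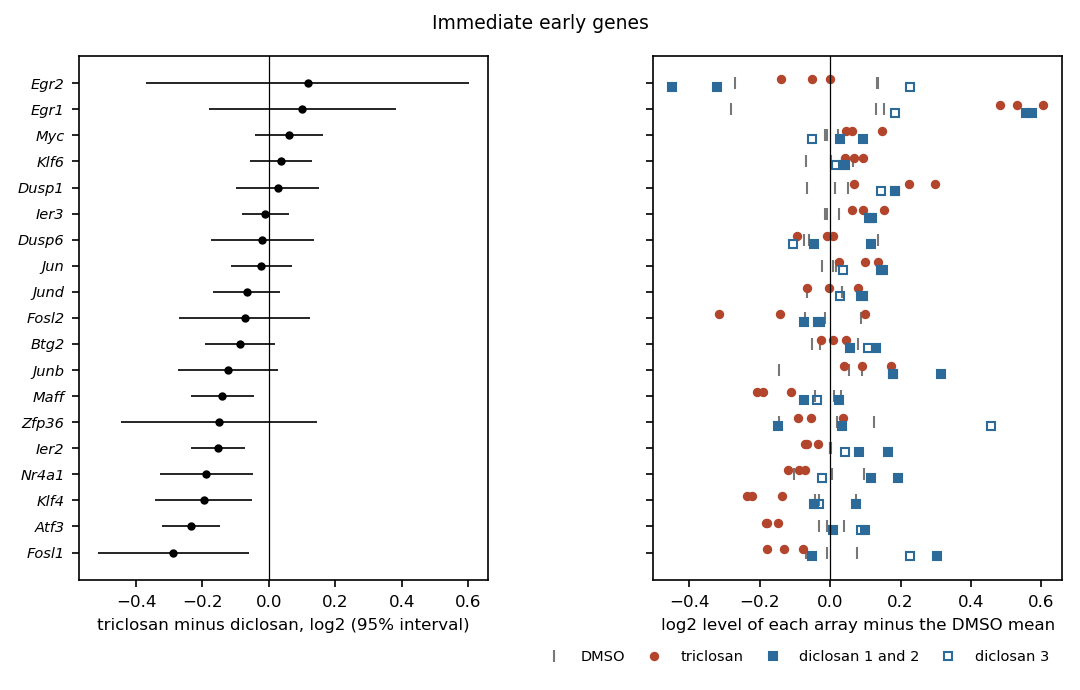
The 19 immediate early genes tested, ordered by difference. Left, triclosan minus diclosan with its 95% interval (log2). Right, each array's level minus the DMSO mean of the gene, for DMSO (ticks), triclosan (circles) and diclosan (squares, open for diclosan 3). The 6 genes whose interval lies below 0 are Fosl1, Atf3, Klf4, Nr4a1, Ier2 and Maff, and 14 of 19 estimates are below 0.

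Listed genes with several promoter windows were again left out, though such windows count among the 33469 promoters. Of the 23 listed immediate early genes, 16 had a single window and were searched. The cyclic AMP response element TGACGTCA, which reads the same on both strands, occurred in the 250 bases before the start of 5 of these (31.2%) against 531 of 33469 promoters (1.59%). Those 5 were Jund, Ier2, Btg2, Dusp1 and Maff, so the motif was in genes with and without a separation. Its core TGACG, on either strand, occurred in 10 of 16 (62.5%) against 18.2%, and in 10 of 19 promoters of the cholesterol list (52.6%). The CArG box of the serum response element occurred in 4 of 16 (25%) against 1.5%: Egr1, Egr2, Zfp36 and Klf6, for none of which the interval left out 0. The promoters of Ier2 (chr19:40399123-40399372, plus strand), Maff (chr7:112792537-112792786, plus strand) and Nr4a1 (chr7:134259888-134260137, plus strand), in GRCr8, are shown as examples from the 6 genes named above, with the whole element (Ier2, Maff) or the most matches to its core (Nr4a1). Fosl1 holds the core in 2 places and is not printed. Capitals mark TGACGTCA in Ier2 and Maff, and in Nr4a1 the 4 places where the opposite strand reads TGACG.
Ier2: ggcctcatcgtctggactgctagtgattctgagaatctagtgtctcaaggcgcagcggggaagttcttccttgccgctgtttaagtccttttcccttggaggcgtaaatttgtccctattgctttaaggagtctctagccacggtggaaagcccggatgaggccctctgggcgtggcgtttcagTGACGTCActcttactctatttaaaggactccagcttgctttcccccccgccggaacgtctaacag
Maff: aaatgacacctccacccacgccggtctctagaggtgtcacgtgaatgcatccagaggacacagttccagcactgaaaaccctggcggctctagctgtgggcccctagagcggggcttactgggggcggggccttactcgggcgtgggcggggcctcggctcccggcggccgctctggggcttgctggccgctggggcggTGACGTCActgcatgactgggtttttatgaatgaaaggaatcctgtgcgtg
Nr4a1: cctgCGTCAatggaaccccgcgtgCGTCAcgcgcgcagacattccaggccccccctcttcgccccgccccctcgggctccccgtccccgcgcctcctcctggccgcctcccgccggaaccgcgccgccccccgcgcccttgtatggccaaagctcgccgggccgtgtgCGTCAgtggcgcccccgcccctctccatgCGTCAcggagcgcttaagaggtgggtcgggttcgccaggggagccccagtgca

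Cholesterol synthesis and uptake genes are run by SREBP2 and its brake Insig1. Of 27 listed, 26 were tested and 23 had a higher mean with triclosan than with diclosan, 4 (15.4%) at an unadjusted limma p under 0.05 and 0 lower, beside 3.5% and 3.38% of all transcripts, of which 8832 of 19886 had a higher mean. The median difference was 0.046, and 0.043 on the first slide, where 6 of 26 were higher at that p, beside 3.78%. The count of 4 fell to 2 without triclosan 1 or without diclosan 2 (median 0.030 without the latter), was 6 without diclosan 1, and fell to 1 when only the 6 compared arrays were fitted. Both phenols lay below the vehicle, with list medians of -0.084, -0.064 and -0.085 on the triclosan arrays and -0.12, -0.15 and -0.16 on the diclosan arrays relative to the DMSO mean. Insig1 read 5.52, 5.69 and 5.70 with triclosan, 5.45, 5.47 and 5.47 with diclosan and 5.61, 5.66 and 5.69 with DMSO. The difference was 0.17 (0.052 to 0.29; limma adjusted p = 0.570), and 0.18 on the first slide. Fdps, which makes farnesyl diphosphate, read 6.85, 6.79 and 6.81 with triclosan, 6.76, 6.67 and 6.72 with diclosan and 6.92, 6.93 and 6.92 with DMSO, an order of diclosan, triclosan and vehicle with no overlap. Its difference was 0.097 (0.023 to 0.17; limma adjusted p = 0.607). Pmvk and Acat2, enzymes of the early pathway, differed by 0.10 (0.018 to 0.18) and 0.093 (0.0021 to 0.18). Other probes of Acat2 gave 0.13 (0.057 to 0.21), 0.063 (-0.071 to 0.20) and 0.058 (-0.067 to 0.18). Sqle, the squalene epoxidase, differed by -0.0028 (-0.075 to 0.069). A 25% difference was excluded for all 26.

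In fatty acid and triglyceride synthesis the list medians overlapped, and 2 of 32 genes (6.25%) had higher levels with triclosan at an unadjusted p under 0.05, beside 3.5% of all transcripts. Elovl6, an elongase, read 1.49, 1.62 and 1.6 with triclosan, 1.43, 1.37 and 1.34 with diclosan and 1.43, 1.48 and 1.44 with DMSO. Its difference was 0.19 (0.090 to 0.29; limma adjusted p = 0.455). Fads2, a desaturase, read 0.43, 0.36 and 0.46 against 0.27, 0.26 and 0.25, with DMSO at 0.52, 0.45 and 0.43, and differed by 0.16 (0.063 to 0.25; limma adjusted p = 0.505). Acsl3, an acyl-CoA synthetase, differed by 0.12 (-0.0032 to 0.24). Fads1 differed by 0.089 (-0.017 to 0.19) and the fatty acid synthase Fasn by -0.0062 (-0.11 to 0.098).

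In drug metabolism, among 30 CAR and PXR targets 0 reached an unadjusted p under 0.05 and a 25% difference was excluded for 28. Cyp2b2, the inducible CAR target, read -0.22, -0.77 and -0.68 with triclosan and -0.38, -0.89 and -0.78 with diclosan, above its DMSO levels of -0.97, -1.04 and -1.28. The phenols overlapped, with a difference of 0.12 (-0.24 to 0.49). Cyp2c6v1 and Cyp3a23-3a1 differed by 0.053 (-0.081 to 0.19) and 0.021 (-0.13 to 0.17). Cyp2a1, Cyp2b3 and Gadd45b had the smallest p of the list, with differences of 0.12, 0.090 and 0.065. Of 8 AhR targets, the diagnostic Cyp1a1 differed by 0.019 (-0.20 to 0.24) and Cyp1a2 by -0.056 (-0.18 to 0.067). Aldh3a1, an aldehyde dehydrogenase, read -4.65, -4.49 and -5.14 with triclosan, not well above background on any of these arrays, and -3.99, -4.41 and -4.28 with diclosan. It had been kept through diclosan only and so had to differ in some degree. With its triclosan readings raised as for Efcc1 above, its mean was 1.39-fold lower with triclosan. This fold does not allow for the spread between arrays. The interval of its measured difference ran from -0.89 to -0.18 (limma adjusted p = 0.564). Arnt, the partner of AhR, differed by -0.048 (-0.14 to 0.046).

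Conjugating enzymes showed no separation past these tests. For all 20 glutathione transferases a 25% difference was excluded, with 0 at an unadjusted p under 0.05. Their median difference was 0.014, and Gsta3, Mgst2, Gsta5 and Gstt2 differed by 0.019, 0.066, 0.054 and 0.035, with another probe of Gstt2 at 0.15 (0.063 to 0.24). Of 23 glucuronosyl- and sulfotransferases, which act on the phenolic group that both compounds have, 0 reached that p, and a 25% difference was excluded for 16. Ugt2b1 read 5.42, 5.31 and 5.38 with triclosan and 5.43, 5.29 and 5.39 with diclosan, and its interval ran from -0.12 to 0.12. Ugt2b10, Sult2a2 and Ugt2a1 differed by 0.16, -0.32 and -0.16, each with an interval that included 0, and Sult2a2 was above background on 1 triclosan array. Among 24 targets of the antioxidant factor NRF2, 2 (8.33%, beside 3.5% of all transcripts) had higher levels with triclosan at an unadjusted p under 0.05: Akr1b8, an aldo-keto reductase, by 0.17 (0.062 to 0.29) and Pgd, a pentose phosphate enzyme, by 0.13 (0.017 to 0.23). The classical targets Nqo1 and Hmox1 differed by -0.035 (-0.12 to 0.052) and 0.022 (-0.092 to 0.14), and Nfe2l2, the gene of NRF2, by 0.070 (-0.016 to 0.16).

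Of the named transcripts that passed against the vehicle, a bile acid gene stood farthest from it. Nr0b2 encodes SHP, a repressor of bile acid synthesis. It read 0.24, -0.072 and 0.14 with triclosan, -0.12, -0.10 and -0.36 with diclosan and -2.21, -1.76 and -2.01 with DMSO. All triclosan arrays lay above all diclosan arrays, and both groups far above the vehicle. The difference was 0.30 (0.016 to 0.57; limma adjusted p = 0.698), or 1.23-fold, and 0.21 on the first slide. Akr1d1, a bile acid reductase, differed by 0.20 (0.067 to 0.32), although other probes of it gave 0.042 and 0.023, and Fgfr4, the receptor for the gut signal that lowers bile acid synthesis, by -0.13 (-0.21 to -0.041). Of 17 genes of bile acid synthesis and conjugation, 2 (11.8%) were higher and 1 (5.88%) lower at an unadjusted p under 0.05, beside 3.5% and 3.38%, and of 16 transporters 0 were. Slco1b2, Slco2b1 and Slco1a1, uptake carriers, differed by 0.13, 0.12 and -0.078 with intervals that included 0.

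Stress pathways other than Atf3 had few genes at an unadjusted p under 0.05. The integrated stress response had 1 of 28 genes (3.57%) higher and 1 (3.57%) lower at an unadjusted p under 0.05. Of all transcripts 3.5% were higher and 3.38% lower at that p. The endoplasmic reticulum list had 4.17% lower, heat shock 5.56% lower, p53 targets 5% higher and cell cycle 2.63% each way. All triclosan arrays lay above all diclosan arrays for 10% of the p53 targets and below them for 15%. These were the largest such shares of these lists, beside 4.61% and 5.43% of all transcripts. In the integrated stress response the higher gene was Ddit4, an inhibitor of mTOR (0.14, 0.0019 to 0.27), and the lower one Atf3. Ddit3 and Trib3, effectors of that response, differed by 0.019 (-0.22 to 0.26) and -0.017 (-0.17 to 0.14), and Gars1 by -0.074, with another probe of it at 0.073. Of 24 endoplasmic reticulum genes, for all of which a 25% difference was excluded, the chaperone Calr differed by -0.096 (-0.18 to -0.0097), Xbp1 by -0.10 and Edem1 by 0.081, the last with another probe at -0.095. For all 18 heat shock genes that difference was excluded, with Dnaja4 at -0.12 (-0.23 to -0.0030), Hspa1a at 0.13 and Chordc1 at -0.062. Among 20 p53 targets, Rrm2b, a ribonucleotide reductase subunit, differed by 0.16 (0.0084 to 0.32), Aen by -0.079, and Cdkn1a, the cell cycle inhibitor, by -0.026 (-0.11 to 0.058). Of 38 cell cycle genes, the cyclin Ccne2 differed by 0.16 (0.040 to 0.28), the phosphatase Cdc25b by -0.23 (-0.39 to -0.069) and Cdk2 by -0.088.

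Respiratory chain genes lay close together. Of 47 oxidative phosphorylation genes 0 reached an unadjusted p under 0.05, and a 25% difference was excluded for 46. Ndufb8 and Ndufs7, subunits of complex I, both differed by -0.067, and the uncoupling protein gene Ucp2 by 0.17 (-0.043 to 0.38). Among 34 genes of glucose use and HIF1, 3 (8.82%) were higher and 1 (2.94%) lower, beside 3.5% and 3.38% of all transcripts. The lower one was Slc2a1, the glucose transporter GLUT1, at 1.61, 1.65 and 1.68 with triclosan, 1.89, 1.83 and 1.78 with diclosan and 1.70 on each DMSO array, a difference of -0.19 (-0.30 to -0.078; limma adjusted p = 0.495), and -0.21 on the first slide. The higher ones were Pdk4, Pck1, an enzyme of glucose synthesis, which differed by 0.44 (0.023 to 0.86), and Vegfa, a growth factor of vessels, which differed by 0.14 (0.031 to 0.25), with other probes of it at 0.057 and 0.073. On the first slide alone 1 of 34, Pdk4, was higher at an unadjusted limma p under 0.05, beside 3.78% of all transcripts. Pck1 and Vegfa did not reach that p there.

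At an unadjusted p under 0.05, 2 of 21 thyroid hormone genes (9.52%), 2 of 13 retinoid genes (15.4%) and 2 of 19 steroid enzymes (10.5%, Akr1d1 among them) were higher with triclosan, beside 3.5% of all transcripts, and 0 were lower. Dio3, which inactivates thyroid hormone, read -0.43, -0.76 and -0.74 with triclosan, -0.82, -0.95 and -0.99 with diclosan and -1.13, -1.13 and -1.14 with DMSO. The order was triclosan, diclosan and vehicle, with no overlap among the 9 arrays, and the phenols differed by 0.27 (0.097 to 0.45; limma adjusted p = 0.564), and 0.24 on the first slide. Dio1, which activates the hormone, differed by 0.094 (0.0040 to 0.18) and the responsive gene Thrsp by 0.079 (-0.051 to 0.21). In the retinoid list Rarb, a retinoic acid receptor, differed by 0.13 (0.022 to 0.23), with another probe at -0.054, Dhrs3, a retinal reductase, by 0.15 (0.0099 to 0.29) and Rxra by 0.10. Of the steroid enzymes, Srd5a1 differed by 0.082 (0.016 to 0.15) and Hsd17b10 by 0.050.

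Among 37 nuclear receptor and coregulator genes 4 (10.8%) were higher and 3 (8.11%) lower at an unadjusted p under 0.05, beside 3.5% and 3.38% of all transcripts. Klf5, a zinc finger factor, had the smallest p. It read -1.57, -1.49 and -1.56 with triclosan, -1.32, -1.39 and -1.36 with diclosan and -1.19, -1.16 and -1.19 with DMSO, an order of triclosan, diclosan and vehicle with no overlap. The difference was -0.18 (-0.26 to -0.10; limma adjusted p = 0.294), as on the first slide alone, and other probes of the gene gave -0.34 (-0.63 to -0.041) and 0.035 (-0.14 to 0.21). Klf15, a glucocorticoid-responsive factor, read 2.48, 2.58 and 2.45 against 2.32, 2.34 and 2.34, a difference of 0.17 (0.071 to 0.27). Cited2, a coactivator-binding protein, differed by -0.20 (-0.39 to -0.018) and Hnf4a, a master factor of hepatocytes, by 0.11 (0.031 to 0.20). Other probes of Hnf4a gave 0.10 (-0.036 to 0.24) and -0.0066 (-0.24 to 0.22). Otherwise the hepatocyte list lay flat, with a median difference of 0.00023, albumin (Alb) at -0.013 (-0.094 to 0.067) and Foxa3 at -0.14 (-0.29 to 0.0056), and 1 of 37 lower at an unadjusted p under 0.05, Igfbp2 at -0.16 (-0.30 to -0.011). In the clock list Bmal1 differed by -0.074 (-0.14 to -0.0037), Dbp by 0.21 and Nr1d1 by -0.16, the last pair with intervals that included 0.

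The inflammation genes and Kupffer cell markers with the smallest p had lower levels with triclosan than with diclosan. Of 27 acute phase and inflammation genes 3 (11.1%) were lower at an unadjusted p under 0.05 and 0 higher, beside 3.38% and 3.5% of all transcripts. Icam1, an adhesion molecule, read 3.97, 3.89 and 3.91 with triclosan, 4.10, 4.06 and 4.05 with diclosan and 4.05, 4.09 and 3.99 with DMSO, a difference of -0.15 (-0.23 to -0.063; limma adjusted p = 0.474). Cxcl2, a chemokine, differed by -0.40 (-0.69 to -0.11) and A2m, a protease inhibitor, by -0.14 (-0.27 to -0.011). Of 9 Kupffer cell markers tested, 8 had a lower mean with triclosan, as had 11054 of all 19886 transcripts, and 1 (11.1%) was lower at that p. The list's median difference was -0.16, and -0.19 on the first slide. C1qb, a complement component, read -2.01, -2.15 and -1.68 with triclosan, -1.15, -1.44 and -1.61 with diclosan and -1.66, -2.29 and -1.97 with DMSO. Its difference was -0.55 (-0.95 to -0.15; limma adjusted p = 0.602), and -0.66 on the first slide. The diclosan arrays lay above the others without overlap, and triclosan lay among the vehicle arrays. The signalling adapters Fcer1g and Tyrobp differed by -0.16 and -0.47 with intervals that included 0, and the monocyte receptor Cd14 by 0.059 (-0.039 to 0.16).

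The median of the 9 Kupffer cell markers relative to DMSO was 0.022, -0.069 and 0.17 on the triclosan arrays and 0.22, 0.21 and 0.20 on the diclosan arrays. Their summed level over 18 markers, in units of each array's 75th percentile, was 11.6 to 12.3 with triclosan, 11.7 to 12.7 with diclosan and 11.3 to 11.7 with DMSO, against 4055 to 4249, 4087 to 4194 and 4141 to 4262 for the hepatocyte list. In such mixed RNA, fewer cells of a type and less RNA per cell cannot be told apart, and the part of these markers in the inflammation genes was not tested. Vwf, Cdh5 and Eng, the endothelial markers tested, differed by -0.14, -0.081 and 0.052. The median of that list was -0.081, -0.051 on the first slide, and turned to 0.052 when probes above background in any of the 4 groups were kept, which brought 5 of its genes in. In the cholangiocyte list Sox9, Cd24 and Ggt1 differed by -0.14, -0.11 and -0.072. Myl9, Acta2 and Thy1 of the stellate cell list differed by -0.091, -0.20 and -0.12. All of these intervals included 0.

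Genes that passed against the vehicle were set side by side for both phenols. Against DMSO, 14 transcripts (0.0704%) passed with triclosan, 7 of them named, and 2 (0.0101%) with diclosan, Nr0b2 and Cited4, by limma with adjusted p under 0.05. These comparisons share their DMSO arrays, so each is given with its own values only, and a call with one phenol and not with the other is no test of a difference between them. Nr0b2 stood 2.09 above DMSO with triclosan and 1.80 with diclosan. Cited4, a transcriptional coactivator, stood 0.58 and 0.62 above it and differed by -0.039 (-0.16 to 0.085) between the phenols, so that a difference beyond 1.12-fold lay outside the 95% interval. Gdf15, a stress hormone, stood 0.83 and 0.68 above DMSO and differed by 0.16 (-0.053 to 0.36). Gsta3 stood 0.25 and 0.23 above it and differed by 0.019 (-0.059 to 0.096).

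Of the genes lower than in the vehicle, Klf5 stood at -0.36 with triclosan and -0.18 with diclosan. Atp2a1, a calcium pump of muscle, stood at -0.62 and -0.37, with arrays at -3.76, -3.54 and -3.74 for triclosan, -3.37, -3.44 and -3.48 for diclosan and -3.16, -2.90 and -3.12 for DMSO. Its difference between the phenols was -0.25 (-0.44 to -0.058; limma adjusted p = 0.607). Kif26b, a kinesin-related gene, stood at -0.27 and -0.17 and differed by -0.10 (-0.18 to -0.023; limma adjusted p = 0.610). For these 3 genes the diclosan arrays lay between those of triclosan and DMSO without overlap. They were named because they passed against DMSO with triclosan and not with diclosan. That choice favours such an order, so the order is no test.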

How the data were processed

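Per the labels' protocols, miRNeasy columns gave the RNA, and Cy3 target was made from 100 ng of it with Agilent's Low Input Quick Amp kit. Per the file headers, the authors' scanner files hold a linear intensity for each spot from Agilent Feature Extraction 10.7.1.1, background-subtracted and detrended, without scaling between arrays. In the table of processed values that the authors deposited, each probe has a linear signal, with the 75th percentile of each array between 0.9995 and 1. It correlated with the scanner values at 0.9999 or more on the log2 scale and was used as an alternative.

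Non-uniform and population outlier spots were left out, spots of a probe were averaged in log2, and each array's 75th percentile was subtracted. Detrending and background subtraction widen the spread of dim spots, and percentile scaling takes the bulk of bright transcripts as equal between arrays. Probe accessions were matched to a RefSeq gene list, GRCr8, for names only (21229 of 45598 probes), and the brightest kept probe stood for a gene. All 12 arrays were fitted by group with limma 3.58.1 in R 4.3.3, with the package data.table at version 1.17.8. Tests are two-sided, adjusted by Benjamini-Hochberg at 0.05, and intervals are 95% and unadjusted. Exclusion used one-sided tests in both directions from the same fit, which did not pair arrays. Precision is limited by 3 arrays per group.

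Genes named are the 8 largest differences each way whose groups do not overlap and whose 95% interval leaves out 0, with a symbol and the brighter group above background, 3 members of each list with the smallest p, and a fixed set of liver genes, of which Cyp7a1 was removed as dim and Ugt1a1 had no named probe. Some genes of that set are not reported here. Further list members, Fhl2 and the 2-fold genes were named after their values were seen. Members and lists were chosen with earlier results of these data known. Arrays with equal replicate numbers were no more alike than others. The correlation of deviations was 0.0048, -0.17 and -0.0028 for equal numbers and -0.14 to 0.18 for unequal ones. With 3 arrays per group and diclosan 3 on the second slide, this cannot exclude a pairing. Alternatives were background correction (normexp with an offset of 50 on median rather than mean signals, since the files used here hold the former), scaling, dim-probe filters, probe choice, slide and replicate blocks, the first slide alone, and each array left out. The fit was tested on simulated data.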

Additional observations from a re-analysis of the deposited data

How the results depend on the processing

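Across 20 alternatives the number of transcripts called stayed at 0 except with quantile normalization (1, Fhl2), and it ranged from 0 to 2 when single arrays were left out (2 without diclosan 1, Fhl2 among them, and 1 without diclosan 2, an unnamed transcript). The smallest adjusted p ran from 0.00841 to 0.714, and the cause was not tested. The count with a 2-fold difference excluded lay between 19553 and 19691 when 1 array was left out. It reached 33456 of 38986 (85.8%) without the filter on dim probes, which adds dim transcripts. With the replicate block it was 19698 and 0 transcripts were called, with 1472 at an unadjusted p under 0.05 against 1369. No triclosan array correlated best with the diclosan array of its own number, which cannot exclude a pairing. The share excluding a 25% difference ran from 34.7% without that filter to 96.6% with normexp, whose offset shrinks dim differences. Of transcripts past an unadjusted p under 0.05, 50.8% were higher with triclosan, against 62.8% when the percentile was taken over probes above background on all 12 arrays and 65.7% with dim probes kept. The median difference of the PPARalpha list stayed above 0 in all 20 (0.046 to 0.10, with 6 to 13 members higher at an unadjusted p under 0.05), and that of the immediate early genes below 0 (-0.12 to -0.033, with 5 to 8 lower). The cholesterol list kept 0.030 to 0.063 the Kupffer markers -0.51 to -0.081, and the endothelial markers -0.11 to 0.052, above 0 only with probes above background in any of the 4 groups. No gene named by the rule whose 95% interval left out 0 changed direction in these alternatives.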
